A study of Mus musculus with 12 samples.

Results

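The genes described here are 9 transport genes of the salivary duct, measured in whole submandibular glands (SMGs) of mice. They were chosen by name. Scnn1a, Scnn1b and Scnn1g encode the subunits of the epithelial sodium channel (ENaC). Slc4a4, Slc4a11 and Slc26a6 belong to families of bicarbonate and anion transporters. The others are the anoctamin gene Ano4 and the carbonic anhydrase genes Car2 and Car12. The set is 9 of 56065 listed genes, and all 9 are among the 17893 genes that had enough counts to be tested. The 12 libraries came from C57BL/6J wild-type mice and from C57BL/6J-Pou2f3 knockout mice (Pou2f3-/-), all aged 8 weeks, with 3 females and 3 males of each genotype and 1 library per mouse. Pou2f3 encodes the transcription factor required for tuft cells, which are rare chemosensory epithelial cells. The knockout was global, so every tissue of the animal lacked the gene, and the design compares the genotypes within each sex and the sexes within each genotype.

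Salivary ducts modify the fluid that acini secrete, taking up sodium and chloride and secreting potassium and bicarbonate. Sodium enters the duct cell through ENaC, a channel of an alpha, a beta and a gamma subunit, and leaves through the basolateral sodium pump. Bicarbonate is supplied by carbonic anhydrases and by basolateral cotransport and leaves through apical anion exchangers. In the SMG of male mice a segment of the duct differentiates under androgens into the granular convoluted tubule.

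Total estimated counts ranged from 47031917 to 67881902 per library, and the lowest count of any of the 9 genes was 21. Levels are given as normalized counts, which are counts scaled by the TMM factors of edgeR to the mean effective library size. The TMM factors were 0.625 to 0.759 in wild-type females, 0.902 to 1.03 in knockout females, 1.04 to 1.45 in wild-type males and 1.11 to 1.25 in knockout males. Changes are log2 fold changes (log2 FC) with their standard errors (SE) from 1 edgeR quasi-likelihood fit over all 12 libraries, and a change was called at a Benjamini-Hochberg adjusted p under 0.05 over all tested genes. Counts of Pou2f3 itself were 1, 0 and 2 (wild type) and 0, 0 and 0 (knockout) for females and 1, 10 and 0 (wild type) and 0, 3 and 1 (knockout) for males, too few to check the genotype labels. The 7 tuft cell markers summed to 61.6 to 157 normalized counts, with Gnat3 and Il25 at 0 in all 12 libraries and only Avil and Plcb2 high enough to be tested. Avil was higher in knockout females (log2 FC 2.06, adjusted p = 0.014), and Plcb2 was not called (log2 FC 0.18, adjusted p = 0.75). By contrast, the 6 ductal epithelium markers (Krt7, Krt8, Krt18, Krt19, Cldn4 and Elf3) were all detected. Knockout female 3 and wild-type male 3 stood apart. They held 283337 and 427287 normalized counts of Muc19, a mucin of sublingual mucous cells, against 104 to 10072 in the 10 other libraries. Calls of the 9 genes and of other genes printed with an adjusted p that change without these 2 libraries are given both ways. Counts of called genes in a list are from all 12 libraries unless stated. Adipocyte markers also differed between mice: Adipoq was at 393 normalized counts in wild-type female 3, 294 in knockout male 2 and 167 in knockout male 3, and at 34.0 or less elsewhere.

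More of the 9 genes were called between the sexes than between the genotypes. In wild-type mice 8 of the 9 differed between the sexes, against 36.5% of all tested genes. The ENaC subunits, Slc4a4 and Slc4a11 were higher in males (5 genes, against 20.5% of all tested genes), Slc26a6, Car2 and Car12 were lower in males (3 genes, against 16.0%), and Ano4 did not pass the test. In knockout mice all 9 differed between the sexes, against 43.5% of all tested genes, with 4 higher in males (background 23.2%) and 5 lower (20.3%). Knockout and wild-type females differed in 3 of the 9 genes (Slc4a11, Ano4 and Car12), against a background of 36.9%, with 2 higher (17.6%) and 1 lower (19.3%) in knockout. Knockout and wild-type males differed in 1 (Slc4a11, lower in knockout), against 0.235% in either direction and 0.134% lower. The study had reported Slc4a11 and Ano4 as lower in knockout males from these same libraries. The male call is therefore not independent of the choice of the 9 genes. That male background rests on 42 called genes, a count that became 635 without knockout male 1 and 13 without wild-type male 1 or wild-type male 3. The groups did not overlap for 5 genes between the female genotypes (49.3% of tested genes), 2 between the male genotypes (14.5%), 8 between the wild-type sexes (47.6%) and 9 between the knockout sexes (54.8%). The female, male and sex comparisons share libraries, so they are not independent of each other.

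**Figure D1:**
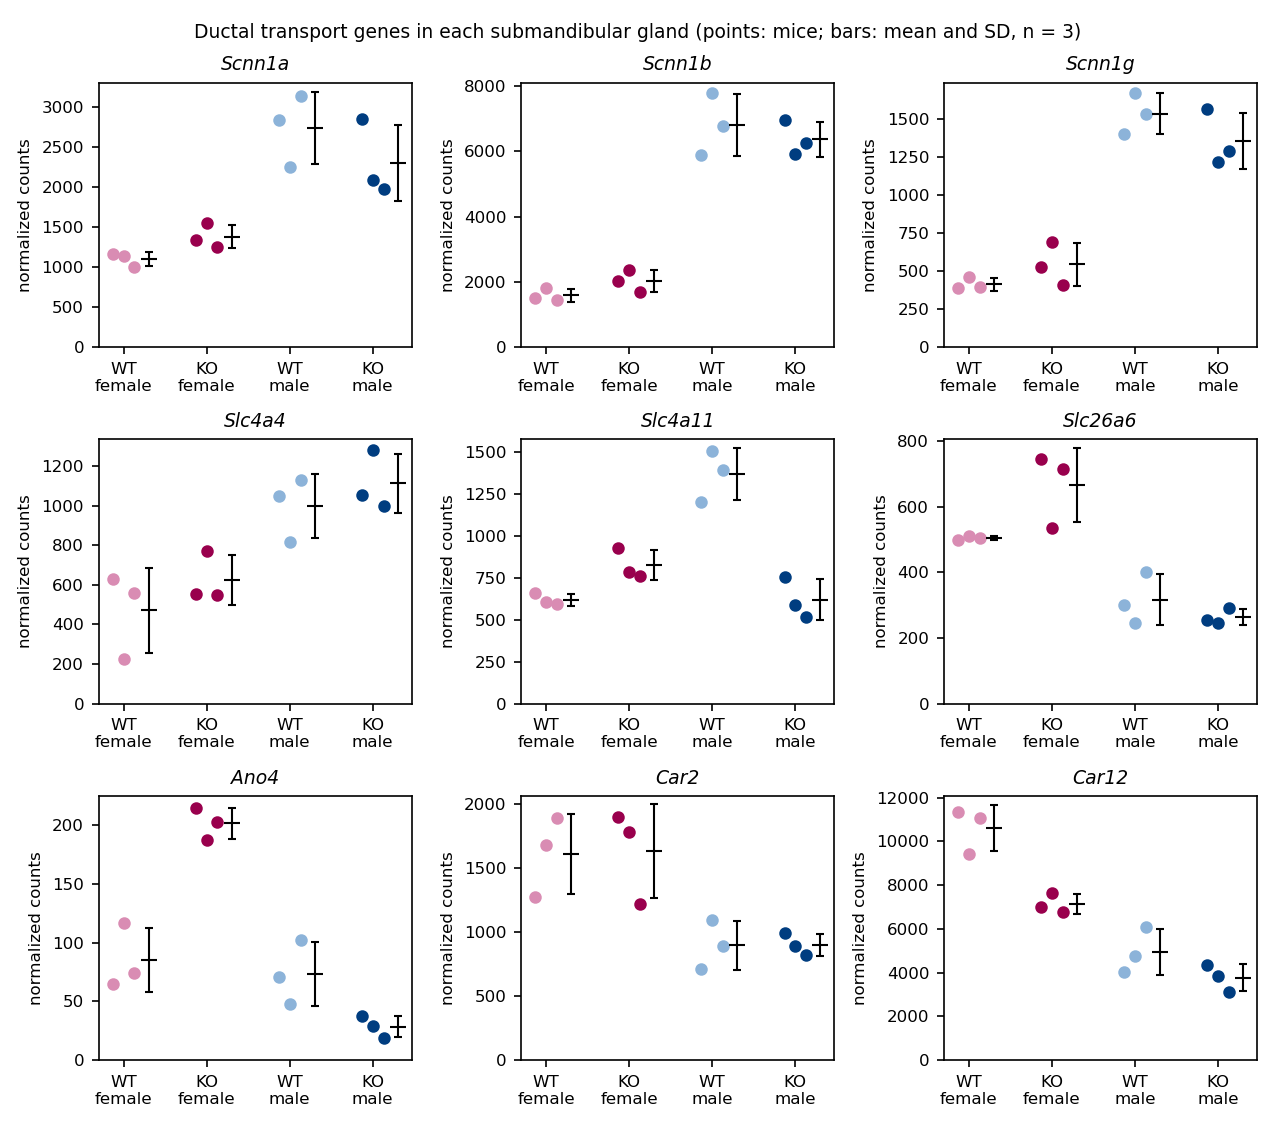
Normalized counts (linear vertical axis from 0) of the 9 genes in each library, by group on the horizontal axis; each point is 1 mouse and the bars give the mean and SD of 3 mice. The male points of Scnn1a, Scnn1b and Scnn1g all lie above the female points, and the Slc4a11 points of knockout males lie below those of wild-type males.

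Per kilobase of canonical transcript, Car12 was the most abundant of the 9 in females, at 2696 ± 264 normalized counts per kb in wild type and 1815 ± 115 in knockout (SD, n = 3). In males the most abundant was Scnn1b, at 2437 ± 339 in wild type and 2281 ± 191 in knockout. Wild-type females followed the order Car12, Car2, Scnn1b, Scnn1a, Slc4a11, Scnn1g, Slc26a6, Slc4a4 and Ano4, with no overlap between the libraries of neighbours. Wild-type males followed the order Scnn1b, Car12, Scnn1a, Scnn1g, Car2, Slc4a11, Slc4a4, Slc26a6 and Ano4, and there Scnn1g overlapped Car2 and Car2 overlapped Slc4a11. Ano4 was the least abundant in all 4 groups, at 19.8 ± 6.40 per kb in wild-type females and 6.61 ± 2.12 in knockout males. The knockout groups kept Car2 ahead of Scnn1b in females and put it ahead of Scnn1g in males, with overlapping libraries in each pair, and Scnn1g also overlapped Slc26a6 in knockout females and Car12 overlapped Scnn1a in knockout males.

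All 3 ENaC subunit genes were higher in males than in females of either genotype, and none of them passed the test between genotypes in either sex in the fit described above, with female calls under some alternatives. Scnn1b, the beta subunit gene, lies on the plus strand of chromosome 7 (GRCm39 chr7:121463946-121517737). It overlaps Cog7 on the opposite strand. The normalized counts of Scnn1b were 1511, 1806 and 1433 (wild type) and 2014, 2370 and 1685 (knockout) in the females and 5887, 7778 and 6765 (wild type) and 6955, 5908 and 6263 (knockout) in the males. Every male library was above every female one. The male level was 4.30-fold that of females in wild type (log2 FC 2.10, SE 0.15, adjusted p = 4.4e-07) and 3.15-fold in knockout (log2 FC 1.66, SE 0.15, adjusted p = 2.9e-06). Between genotypes the log2 FC was 0.35 (SE 0.15, adjusted p = 0.073) in females and -0.10 (SE 0.14, adjusted p = 0.86) in males, with overlapping groups in both.

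Scnn1g, the gamma subunit gene, neighbours Scnn1b on the same strand (chr7:121333545-121367755), with 96.2 kb between them. In the females Scnn1g was at 388, 463 and 392 normalized counts without the mutation and at 528, 694 and 411 with it, and in the males at 1401, 1673 and 1535 and at 1568, 1217 and 1291. The sexes were again fully separated. The sex difference was 3.71-fold in wild type (log2 FC 1.89, SE 0.17, adjusted p = 3e-06) and 2.49-fold in knockout (log2 FC 1.32, SE 0.17, adjusted p = 5e-05). The genotype difference had a log2 FC of 0.40 (SE 0.17, adjusted p = 0.084) in females and -0.18 (SE 0.16, adjusted p = 0.74) in males. Without knockout female 3 and wild-type male 3, the female genotype differences of Scnn1b (log2 FC 0.47, SE 0.15, adjusted p = 0.049) and Scnn1g (log2 FC 0.56, SE 0.16, adjusted p = 0.031) passed the threshold. Without knockout female 2 they were smaller, at 0.18 (adjusted p = 0.35) for Scnn1b and 0.14 (adjusted p = 0.50) for Scnn1g. Under the authors' own factors, which are set for each gene in each library, they were 0.20 and 0.28. With upper-quartile factors, which raised the median of all genes in this comparison by 0.104, all 3 subunit genes passed in females (log2 FC 0.44 for Scnn1a, 0.46 for Scnn1b and 0.50 for Scnn1g, adjusted p = 0.04, 0.02 and 0.029), as did Scnn1b and Scnn1g with at least 10 counts in every library (log2 FC 0.39 and 0.43, adjusted p = 0.028 and 0.043).

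Scnn1a, the alpha subunit gene (chr6:125297622-125321906, plus strand), is needed for channel activity and had the smallest sex difference of the 3. Females had 1160, 1130 and 998 normalized counts of Scnn1a in wild type and 1341, 1544 and 1253 in knockout, while males had 2833, 2250 and 3131 and 2840, 2088 and 1968. The male level was 2.50-fold that of females in wild type (log2 FC 1.32, SE 0.15, adjusted p = 2.7e-05) and 1.67-fold in knockout (log2 FC 0.74, SE 0.15, adjusted p = 0.0019). The knockout females lay above the wild-type females without overlap, but the difference missed the threshold (log2 FC 0.33, SE 0.15, adjusted p = 0.11). In males the genotypes overlapped (log2 FC -0.25, SE 0.15, adjusted p = 0.56). The interaction, female minus male genotype difference, was 0.58 for Scnn1a, 0.45 for Scnn1b and 0.57 for Scnn1g (adjusted p = 0.061, 0.12 and 0.086). With upper-quartile factors Scnn1a (0.67, adjusted p = 0.038) and Scnn1g (0.65, adjusted p = 0.049) passed. Scnn1a also passed with either other low-count filter. Without each library the interaction ranged from 0.42 to 0.76 for Scnn1a and 0.28 to 0.68 for Scnn1g, with some calls.

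The proportions of the subunit transcripts differed between the sexes. Per kilobase, Scnn1b made up 54.4% to 58.0% of the 3 subunits in the female libraries and 62.8% to 70.5% in the male libraries, and Scnn1a made up 29.0% to 33.4% and 16.3% to 24.1%. Scnn1g held 11.8% to 14.4% in females and 12.3% to 13.2% in males. The ratio of Scnn1b to Scnn1a was 1.81 ± 0.185 (wild type) and 1.83 ± 0.129 (knockout) in females and 3.21 ± 0.971 (wild type) and 3.53 ± 0.455 (knockout) in males (SD, n = 3). Its log2 was 0.87 higher in males within genotype (two-sided exact permutation test, p = 0.005, the smallest that 400 arrangements allow, and 0.01 after adjustment over 6 tests). Between genotypes within sex the log2 of the ratio differed by 0.09 (exact permutation p = 0.49). The ratios were chosen for testing after the levels had been seen.

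**Figure D2:**
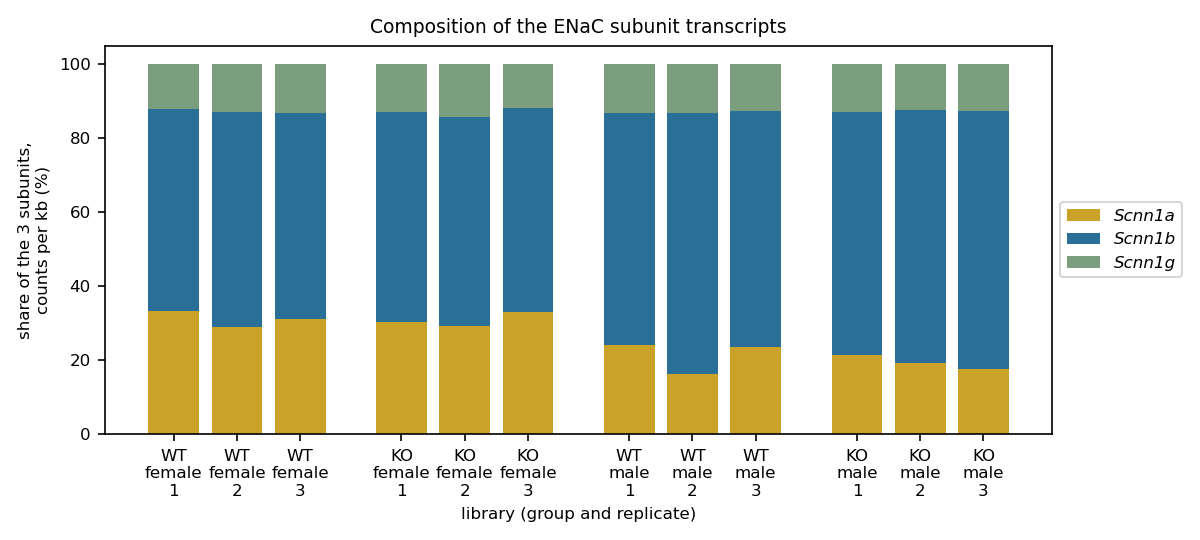
Share of each ENaC subunit gene (percent of the sum of the 3, in counts per kb; vertical axis) in each of the 12 libraries (horizontal axis). The Scnn1b segment is 54.4% to 58.0% in females and 62.8% to 70.5% in males, and the Scnn1a segment is smaller in every male library.

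Scnn1b and Scnn1g had the closest pair of profiles among the 9 genes, with a Pearson correlation of log2 CPM of 0.99 over the 12 libraries and 0.93 after subtraction of the group means. These libraries share the sex difference, and the values are a description. Scnn1a and Scnn1b correlated at 0.94 over the 12 libraries and at 0.27 within groups. The bases before the annotated start sites of the neighbouring pair are printed because the 2 genes move together. They cover 250 bases upstream on the plus strand, from the RefSeq promoter table (GRCm38.p6), placed on GRCm39 by exact match at chr7:121333452-121333701 for Scnn1g and chr7:121464011-121464260 for Scnn1b. The RefSeq start sites lie 157 bases (Scnn1g) and 315 bases (Scnn1b) inside the genes from their Gencode starts, so the Scnn1b window is within the Gencode gene. Capitals mark each match to the GC box GGGCGG on either strand.
Scnn1g: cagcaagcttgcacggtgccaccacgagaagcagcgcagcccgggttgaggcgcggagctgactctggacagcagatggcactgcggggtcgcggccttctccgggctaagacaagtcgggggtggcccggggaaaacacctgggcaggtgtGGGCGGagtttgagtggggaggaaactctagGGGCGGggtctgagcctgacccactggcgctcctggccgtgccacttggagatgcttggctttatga
Scnn1b: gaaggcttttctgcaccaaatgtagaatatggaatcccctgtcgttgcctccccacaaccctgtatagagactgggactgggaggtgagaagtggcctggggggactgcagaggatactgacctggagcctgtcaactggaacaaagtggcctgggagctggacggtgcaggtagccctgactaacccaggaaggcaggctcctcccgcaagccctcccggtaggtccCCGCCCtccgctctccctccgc

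The GC box matched at 98 and 67 bases before the start site of Scnn1g and at 22 bases before that of Scnn1b. It was present in 32.7% of the 32851 promoters of that table cut to the same 250 bases. The TATA box TATAAA (12.4% of promoters) and the hormone response half-site AGAACA (16.1%), searched on both strands, had no match in the upstream bases of either gene. The table held windows for 6 of the 9 genes, and Scnn1a, Slc4a11 and Car2 had no entry. Matches to the GC box were also found upstream of Slc4a4, Car12 and Slc26a6.

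The sex difference in ENaC genes was accompanied by differences in markers of the ducts and of other cells. The summed ductal epithelium markers were at 14257 to 18231 (wild type) and 12618 to 15515 (knockout) normalized counts in females and at 24395 to 26285 (wild type) and 22515 to 27448 (knockout) in males. Of these 6 markers, 3 were higher in males in wild type (20.5% of all tested genes) and 6 in knockout (23.2%), with median log2 FC of 1.16 and 0.91. Without knockout female 3 and wild-type male 3, the knockout sex differences of Krt18 and Krt19 missed the threshold. Krt18 went from a log2 FC of 0.54 (adjusted p = 0.016) to 0.46 (adjusted p = 0.084). Krt19 went from 1.35 (adjusted p = 0.05) to 1.19 (adjusted p = 0.18). The 8 granular convoluted tubule markers summed to 277470 to 521686 in wild-type females and 4146289 to 7459424 in wild-type males, with 7 of the 8 higher in males and Klk1, the main part of the female sum, lower (log2 FC -1.04, adjusted p = 0.011). In the same order the 8 acinar markers summed to 19471799 to 31852984 and 4635502 to 7572373. Most of the acinar sum was Mucl2 (mean 24152200 in wild-type females and 5623683 in wild-type males), while Dcpp1, Dcpp2 and Bpifa2 had higher means in wild-type males and were not called. Without knockout female 3 and wild-type male 3, their log2 FC (male minus female) was -1.62, -7.03 and 0.40, also not called. The 6 basal and myoepithelial markers summed to 8177 to 10861 in wild-type females and 21055 to 25335 in wild-type males, with 4 called higher and 1 lower in males, and 4 of the 5 endothelial markers were lower in males, against 20.5% higher and 16.0% lower over all tested genes. The part of these shifts in the results for the 9 genes was not tested, and in bulk tissue fewer cells of a type cannot be told apart from less RNA per cell.

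Genes known to regulate ENaC were examined as a list of 18, of which 17 were tested. In wild-type mice 6 were higher and 2 lower in males, with a median log2 FC of 0.14, against 20.5% higher, 16.0% lower and a median of 0.06 over all tested genes. Sgk1, the kinase that raises ENaC surface expression, was higher in males (log2 FC 2.87, SE 0.23, adjusted p = 1.1e-06). Spint1, an inhibitor of channel-activating proteases, was also higher in males (log2 FC 1.39, SE 0.16, adjusted p = 2.5e-05), as was the protease gene Furin (log2 FC 0.56, adjusted p = 0.0025). Stk39, a kinase of the WNK pathway, was lower in males (log2 FC -0.80, adjusted p = 0.0006).

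Between female genotypes 2 of the 17 regulators were higher in knockout and 5 were lower, with a median log2 FC of -0.18. Over all tested genes the shares were 17.6% and 19.3%, not far from those of the list, and the median was 0.03. Usp2, a deubiquitinase that acts on ENaC and is also a clock-controlled gene, fell in knockout females (log2 FC -2.28, SE 0.14, adjusted p = 2e-06). It was also the 1 regulator called in males (log2 FC -0.82, SE 0.13, adjusted p = 0.023), against 0.134% of all tested genes lower there, and without knockout female 3 and wild-type male 3 it missed the threshold (log2 FC -0.87, adjusted p = 0.077). Prss8, an ENaC-cleaving protease (log2 FC -0.75, adjusted p = 0.00056), and Stk39 (log2 FC -0.84, adjusted p = 0.00078) fell in knockout females. Nr3c2, the mineralocorticoid receptor, rose in them (log2 FC 0.70, SE 0.14, adjusted p = 0.0026). Nedd4l, the ubiquitin ligase that removes ENaC from the membrane, was singled out after its values had been seen. It rose in knockout females (log2 FC 0.60, SE 0.15, adjusted p = 0.0093). Its genotype difference was larger in females than in males by 1.03 on the log2 scale (interaction adjusted p = 0.0072). The related gene Nedd4, also on the list, fell in knockout females (log2 FC -0.43, SE 0.11, adjusted p = 0.011). In wild-type females the mean of Nedd4 was 21238 normalized counts and that of Nedd4l 1330.

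The sodium pump and the sodium-proton exchangers formed a list of 12 genes, with 11 tested. Knockout females were higher than wild type in 1 and lower in 5 (17.6% and 19.3% of all tested genes), with a median log2 FC of -0.43. The pump regulator Fxyd3 (log2 FC -0.77, adjusted p = 0.0014) and the scaffold gene Nherf1 (log2 FC -0.62, adjusted p = 0.0008) were among those that fell. Without knockout female 3 and wild-type male 3, Atp1b1 (log2 FC -0.46, adjusted p = 0.13) and Atp1b3 (log2 FC -0.41, adjusted p = 0.09) were no longer called. With all 12 libraries they were at -0.54 (adjusted p = 0.027) and -0.43 (adjusted p = 0.023). In males 1 gene was called, the exchanger Slc9a4, which was at 295, 371 and 332 normalized counts in wild type and at 158, 143 and 158 in knockout (log2 FC -1.12, SE 0.18, adjusted p = 0.025), against 0.134% of all tested genes lower. Without the 2 Muc19-high libraries Slc9a4 missed the threshold at the same log2 FC (adjusted p = 0.10). In wild-type mice 4 were higher in males and 2 lower (20.5% and 16.0% of all tested genes), among them Slc9a2 (log2 FC 1.87, adjusted p = 8.1e-06), Slc9a4 (log2 FC 0.93, adjusted p = 0.0017) and Fxyd3 (log2 FC -1.05, adjusted p = 9.1e-05).

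Among Slc4a4, Slc4a11 and Slc26a6, Slc4a11 alone passed the test between genotypes, and it moved in opposite directions in the sexes. Slc4a11 encodes a membrane transporter placed in the bicarbonate transporter family (chr2:130526028-130539898, minus strand). Whether it carries bicarbonate was not tested here. The study singled out Slc4a11 and Ano4 on these same libraries. Their values here are therefore not independent evidence of a genotype difference, its direction, its rank among all genes or its dependence on sex. The normalized counts of Slc4a11 were 660, 603 and 595 (wild type) and 929, 787 and 762 (knockout) in the females and 1200, 1509 and 1396 (wild type) and 753, 590 and 517 (knockout) in the males. The 2 genotypes did not overlap in either sex, and the knockout males lay around the level of the wild-type females. The decrease in males was 2.21-fold (log2 FC -1.14, SE 0.14, adjusted p = 0.0038), and 95.7% of all tested genes had a smaller absolute log2 FC in that comparison.

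In females Slc4a11 was 1.33-fold higher in knockout (log2 FC 0.41, SE 0.14, adjusted p = 0.035). The genotype difference was 1.56 higher on the log2 scale in females than in males (SE 0.20, adjusted p = 0.0027), and 25.7% of all tested genes passed that interaction test (13.4% in this direction). That share rests on 4606 genes, a count that became 2384 without wild-type male 1, 2898 without wild-type male 3 and 1140 without knockout female 3 and wild-type male 3. The sex difference had opposite signs in the 2 genotypes. Slc4a11 was 2.21-fold higher in males in wild type (log2 FC 1.14, SE 0.14, adjusted p = 4.2e-05) and 1.33-fold lower in males in knockout (log2 FC -0.42, SE 0.14, adjusted p = 0.029). Without knockout female 3 and wild-type male 3, the male decrease kept its size but missed the threshold (log2 FC -1.13, SE 0.17, adjusted p = 0.054), as did the female increase (log2 FC 0.47, adjusted p = 0.066) and the knockout sex difference (log2 FC -0.47, adjusted p = 0.054), whereas the interaction passed it (log2 FC 1.60, SE 0.24, adjusted p = 0.028). The knockout sex call was also lost without knockout female 1 or 2, knockout male 2 or 3 or wild-type female 2, where the log2 FC was -0.40 to -0.27 and the adjusted p reached 0.16. The female call was lost when any single female library or wild-type male 3 was left out. The log2 FC was then 0.28 without knockout female 1 and 0.35 to 0.42 without the others. That call was also lost under the authors' own factors for each gene and library (log2 FC 0.28, adjusted p = 0.19).

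Some markers of ionocytes, the proton- and chloride-transporting cells of the duct, fell in knockout males, as Slc4a11 did. Foxi1, their transcription factor, was at 855, 962 and 947 normalized counts in wild-type males and at 510, 498 and 545 in knockout males (log2 FC -0.83, SE 0.15, adjusted p = 0.043). Atp6v1b1, a proton pump subunit, was at 575, 587 and 696 and at 390, 268 and 275 (log2 FC -0.99, SE 0.18, adjusted p = 0.047). In males 2 of the 5 ionocyte markers fell, against 0.134% of all tested genes, Ascl3 (log2 FC -1.26, adjusted p = 0.11), Atp6v0d2 (log2 FC -0.27, adjusted p = 0.65) and Cftr (log2 FC -0.04, adjusted p = 0.97) did not pass the test, and the summed level of the 5 ranged from 7741 to 8751 in wild type and from 5125 to 8697 in knockout. In females 2 of the 5 fell as well (19.3% of all tested genes), Foxi1 (log2 FC -0.48, adjusted p = 0.027) and Ascl3 (log2 FC -0.95, adjusted p = 0.023), while Slc4a11 rose there. Cftr had the opposite sign (log2 FC 0.72, adjusted p = 0.054) and was not called. Neither Atp6v1b1 (log2 FC -0.23, adjusted p = 0.35) nor Atp6v0d2 (log2 FC -0.03, adjusted p = 0.93) passed in females. The female sum ranged from 2797 to 4311 in wild type and from 3222 to 4003 in knockout. Without the 2 Muc19-high libraries these calls were lost, for Foxi1 (log2 FC -0.81, adjusted p = 0.22) and Atp6v1b1 (log2 FC -0.90, adjusted p = 0.28) in males and for Foxi1 (log2 FC -0.39, adjusted p = 0.14) and Ascl3 (log2 FC -0.88, adjusted p = 0.098) in females. None of the 5 was at 0. Other marker sums were higher in knockout than wild-type males without overlap, beside 14.5% of single tested genes without overlap in either direction. Those of fibroblasts were 15978 to 17223 in wild type and 19433 to 33213 in knockout, and those of macrophages 2185 to 2588 and 2706 to 4266. Adipocyte sums were 79.7 to 80.7 and 151 to 1819, and lymphocyte and plasma cell sums 25.4 to 37.8 and 78.7 to 166. Of these markers Dpt was called (log2 FC 1.84, adjusted p = 0.017), against 0.101% of all tested genes higher. Without the 2 Muc19-high libraries Dpt was not called (log2 FC 1.77, adjusted p = 0.15). The part of all these markers in the Slc4a11 result was not tested.

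**Figure D3:**
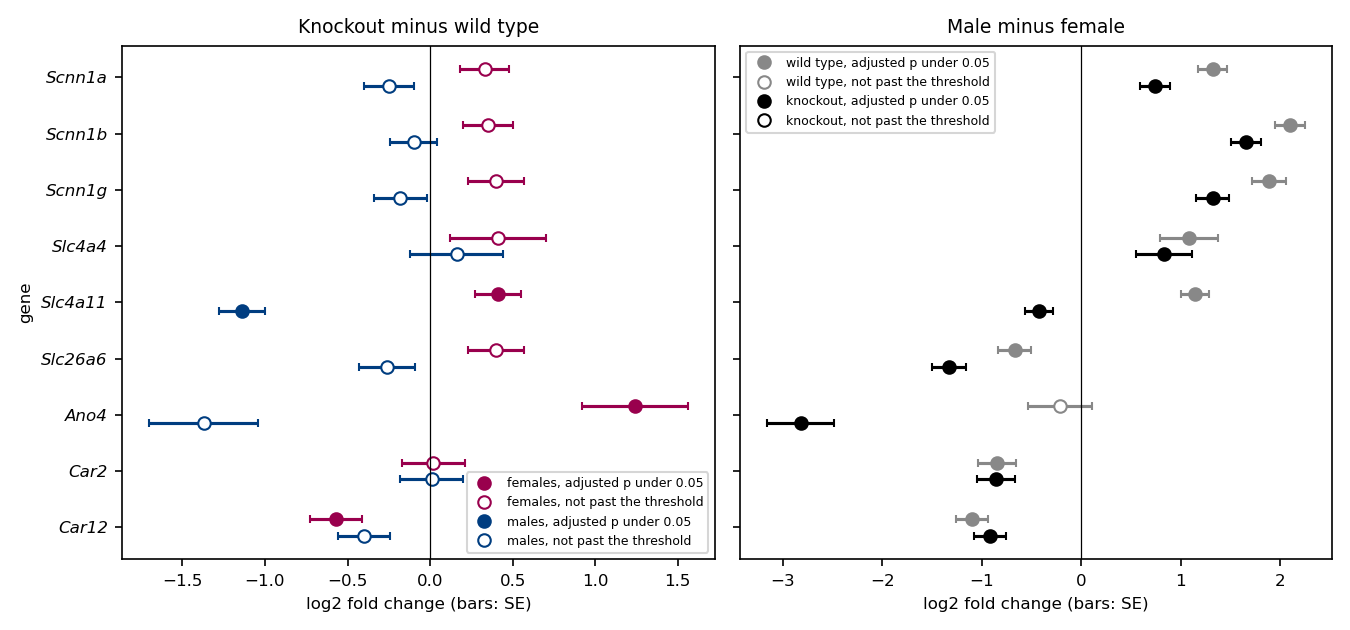
Log2 FC of the 9 genes with SE bars (horizontal axis), for knockout minus wild type in each sex (left) and male minus female in each genotype (right); filled points passed an adjusted p of 0.05. Slc4a11 lies at 0.41 in females and -1.14 in males, and Ano4 at 1.24 and -1.37, on either side of 0.

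Slc4a4 encodes the electrogenic sodium-bicarbonate cotransporter NBCe1, which loads bicarbonate across the basolateral membrane (chr5:89034345-89387514, plus strand). It was higher in males, and no genotype difference passed the test. In the females Slc4a4 was at 631, 226 and 558 normalized counts without the mutation and at 555, 773 and 548 with it, and in the males at 1048, 816 and 1131 and at 1056, 1282 and 1000. Wild-type female 2 was the lowest of the 12, and without it the log2 FC between female genotypes was 0.03. The sex difference was 2.12-fold in wild type (log2 FC 1.08, SE 0.29, adjusted p = 0.01) and 1.78-fold in knockout (log2 FC 0.83, SE 0.28, adjusted p = 0.03). The knockout call was lost without knockout female 3 and wild-type male 3 (log2 FC 0.74, adjusted p = 0.12). It was also lost without knockout female 1, knockout female 3 or knockout male 2 alone, where the adjusted p reached 0.095, with upper-quartile factors (log2 FC 0.67, adjusted p = 0.076) and with the authors' own factors (log2 FC 0.53, adjusted p = 0.12). The genotype log2 FC was 0.41 (SE 0.29, adjusted p = 0.29) in females and 0.16 (SE 0.28, adjusted p = 0.89) in males.

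Slc26a6, an apical exchanger of chloride for bicarbonate (chr9:108730289-108742118, plus strand), ran opposite to Slc4a4 and was lower in males. Females had 498, 512 and 505 normalized counts of Slc26a6 in wild type and 745, 536 and 716 in knockout, while males had 302, 247 and 401 and 256, 246 and 293. All male libraries were below all female libraries. The male level was 1.59-fold lower in wild type (log2 FC -0.67, SE 0.17, adjusted p = 0.008) and 2.51-fold lower in knockout (log2 FC -1.33, SE 0.17, adjusted p = 6.1e-05). Knockout females were above wild-type females without overlap, but the difference missed the threshold (log2 FC 0.40, SE 0.17, adjusted p = 0.083), as did that in males (log2 FC -0.26, SE 0.17, adjusted p = 0.62) and the interaction (0.65, SE 0.24, adjusted p = 0.062). The female difference passed with upper-quartile factors (log2 FC 0.50, adjusted p = 0.038) and without knockout female 2 (0.49, adjusted p = 0.045), and with the authors' own factors it was 0.15 (adjusted p = 0.55). The interaction passed with upper-quartile factors (0.74, adjusted p = 0.046), without knockout female 2 (0.71, adjusted p = 0.041), without wild-type male 2 (0.80, adjusted p = 0.02) and with the replicate number as a block (0.62, adjusted p = 0.047), although the numbers did not pair the mice. It was smaller with the authors' own factors (0.41, adjusted p = 0.27) and without the 2 Muc19-high libraries (0.39, adjusted p = 0.29).

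Of 15 other bicarbonate and anion transporter genes, 10 were tested. Knockout females were higher than wild type in 3 and lower in 2 (17.6% and 19.3% of all tested genes), with a median log2 FC of 0.49, and none was called in males, where the median was -0.24. Slc4a3, an anion exchanger, rose in females (log2 FC 1.85, SE 0.31, adjusted p = 0.0009), as did the related exchanger Slc4a2 (log2 FC 0.48, adjusted p = 0.0071). The sulfate transporter Slc26a2 (log2 FC -0.91, adjusted p = 0.00015) and the electroneutral sodium-bicarbonate cotransporter Slc4a7 (log2 FC -0.58, adjusted p = 0.003) fell. In wild-type mice 3 were higher and 2 lower in males (20.5% and 16.0%): Cftr, the apical chloride and bicarbonate channel, was higher (log2 FC 2.06, SE 0.28, adjusted p = 9.1e-05), as was Slc4a2 (log2 FC 0.73, adjusted p = 0.00039), and Slc4a7 (log2 FC -1.14, adjusted p = 1.4e-05) and Slc26a2 (log2 FC -0.60, adjusted p = 0.00042) were lower.

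Ano4 showed the largest interaction of the 9 genes at the lowest level. It belongs to the anoctamin family of calcium-activated channels and lipid scramblases and lies on the minus strand of chromosome 10 (chr10:88784789-89181063). The normalized counts of Ano4 were 65.2, 117 and 73.8 (wild type) and 215, 188 and 203 (knockout) in the females and 70.7, 47.6 and 102 (wild type) and 37.3, 29.1 and 19.1 (knockout) in the males. The knockout females were the highest 3 libraries and the knockout males the lowest 3, with the wild-type libraries of the sexes between them and overlapping. The level in knockout females was 2.37-fold that of wild type (log2 FC 1.24, SE 0.32, adjusted p = 0.0084). That in knockout males was 2.58-fold lower and missed the threshold (log2 FC -1.37, SE 0.33, adjusted p = 0.12).

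The male decrease of Ano4 passed the threshold with DESeq2 (log2 FC -1.35, SE 0.35, adjusted p = 0.0086), without the filter on low counts (log2 FC -1.36, adjusted p = 0.022) and without knockout male 1 (adjusted p = 0.04). It was smaller and not called without wild-type male 3 (log2 FC -1.05, adjusted p = 0.41), without knockout male 3 (log2 FC -1.14, adjusted p = 0.44) and without the 2 Muc19-high libraries (log2 FC -1.06, adjusted p = 0.53). The genotype difference was 2.61 higher on the log2 scale in females than in males (SE 0.46, adjusted p = 0.0043), and 96.5% of tested genes had a smaller absolute value. The sexes differed by a log2 FC of -0.21 in wild type (SE 0.32, adjusted p = 0.63) and by 7.07-fold, lower in males, in knockout (log2 FC -2.82, SE 0.34, adjusted p = 3.3e-05). Leaving out knockout female 3 and wild-type male 3 gave an interaction of 2.29 (SE 0.49, adjusted p = 0.036).

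The upstream bases of Ano4 are shown beside those of the ENaC pair because they held none of the 3 motifs searched. They are from RefSeq (GRCm38.p6) and matched GRCm39 at chr10:89093653-89093902 on the minus strand, next to a start site 87411 bases inside the gene from its Gencode start. There are no capitals because no motif matched.
Ano4: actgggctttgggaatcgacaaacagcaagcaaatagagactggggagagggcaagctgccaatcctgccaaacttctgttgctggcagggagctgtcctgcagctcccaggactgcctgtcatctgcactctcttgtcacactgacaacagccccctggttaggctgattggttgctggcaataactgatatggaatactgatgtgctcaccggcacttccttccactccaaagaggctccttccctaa

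Of the 9 other anoctamin genes 5 were tested. In knockout females 3 rose and none fell, with a median log2 FC of 0.28, against 17.6% higher, 19.3% lower and a median of 0.03 over all tested genes. They were Ano8 (log2 FC 1.06, SE 0.15, adjusted p = 0.00036), the scramblase gene Ano6 (log2 FC 0.28, adjusted p = 0.026) and Ano9 (log2 FC 1.59, SE 0.56, adjusted p = 0.042), of which Ano6 (adjusted p = 0.084) and Ano9 (adjusted p = 0.065) were lost without the 2 Muc19-high libraries. None was called in males, where the median was -0.27. Ano1, the calcium-activated chloride channel of acinar cells, was not called between genotypes in females (log2 FC -0.31, SE 0.19, adjusted p = 0.21). In wild-type mice Ano8 (log2 FC 0.95, adjusted p = 0.00024) and Ano10 (log2 FC 0.41, adjusted p = 0.048) were higher in males, Ano10 not without those libraries (adjusted p = 0.17).

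Both carbonic anhydrase genes were lower in males, and Car12 was lower in knockout females. Car12 encodes a membrane-anchored enzyme with its active site outside the cell (chr9:66615426-66674186, plus strand) and overlaps Aph1b on the opposite strand. In the females Car12 was at 11321, 9415 and 11087 normalized counts without the mutation and at 7002, 7646 and 6771 with it, and in the males at 4022, 4739 and 6096 and at 4356, 3830 and 3109. The female genotypes did not overlap. Knockout females were 1.49-fold lower (log2 FC -0.57, SE 0.16, adjusted p = 0.015). That call was lost under the authors' own factors (log2 FC -0.28, adjusted p = 0.21). Those factors can differ between genes, and under them the median of all genes in this comparison moved by -0.034. In males the groups overlapped (log2 FC -0.40, SE 0.16, adjusted p = 0.36), and the genotype difference was not shown to depend on sex (interaction -0.18, SE 0.23, adjusted p = 0.59), with its sign changing under the authors' factors (0.10).

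Males had less Car12 than females in wild type (2.14-fold, log2 FC -1.10, SE 0.16, adjusted p = 0.00018) and in knockout (1.90-fold, log2 FC -0.92, SE 0.16, adjusted p = 0.00059). Car12 and Slc26a6 lie on chromosome 9, which also carries Pou2f3, at 23.5 Mb and 65.6 Mb from it. The acinar markers summed to 11166763 to 13204434 normalized counts in knockout females, below the wild-type females, and 4 of the 8 fell, against 19.3% of all tested genes, or 3 without the 2 Muc19-high libraries (Mucl2, log2 FC -1.03, adjusted p = 0.094). Their part in the Car12 result was not tested.

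Car2 encodes the cytosolic enzyme (chr3:14951317-14967568, plus strand). Females had 1274, 1681 and 1890 normalized counts of Car2 in wild type and 1901, 1786 and 1217 in knockout, while males had 711, 1093 and 891 and 995, 890 and 824. The genotypes overlapped in each sex, and the males were below the females. The sex difference was 1.80-fold in wild type (log2 FC -0.85, SE 0.19, adjusted p = 0.0044) and 1.81-fold in knockout (log2 FC -0.86, SE 0.19, adjusted p = 0.0034). The genotype log2 FC of 0.02 in females (SE 0.19, adjusted p = 0.95) changed sign with the scaling, down to -0.07 with the authors' factors, and that in males was 0.01 (SE 0.19, adjusted p = 0.99).

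Of 13 other carbonic anhydrase genes 9 were tested. In knockout females 1 rose and 3 fell (17.6% and 19.3% of all tested genes), with a median log2 FC of -0.28. Car15 rose (log2 FC 1.80, SE 0.38, adjusted p = 0.0031). Car6, the secreted salivary enzyme (log2 FC -0.85, SE 0.23, adjusted p = 0.013), the mitochondrial Car5b (log2 FC -0.70, adjusted p = 0.0041) and the cytosolic Car13 (log2 FC -0.43, adjusted p = 0.041) fell, Car13 not without the 2 Muc19-high libraries (adjusted p = 0.18). None was called in males. In wild-type mice Car13 was higher in males (log2 FC 2.28, SE 0.15, adjusted p = 2.9e-07), opposite to the cytosolic Car2, whereas Car6 (log2 FC -1.53, adjusted p = 0.00029), Car5b (log2 FC -1.33, adjusted p = 2.9e-05) and Car3 (log2 FC -4.71, SE 1.33, adjusted p = 0.014) were lower. Car3 was at 2694 normalized counts in wild-type female 3 and at 3248 and 1495 in knockout males 2 and 3, the libraries that were also highest in Adipoq.

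**Figure D4:**
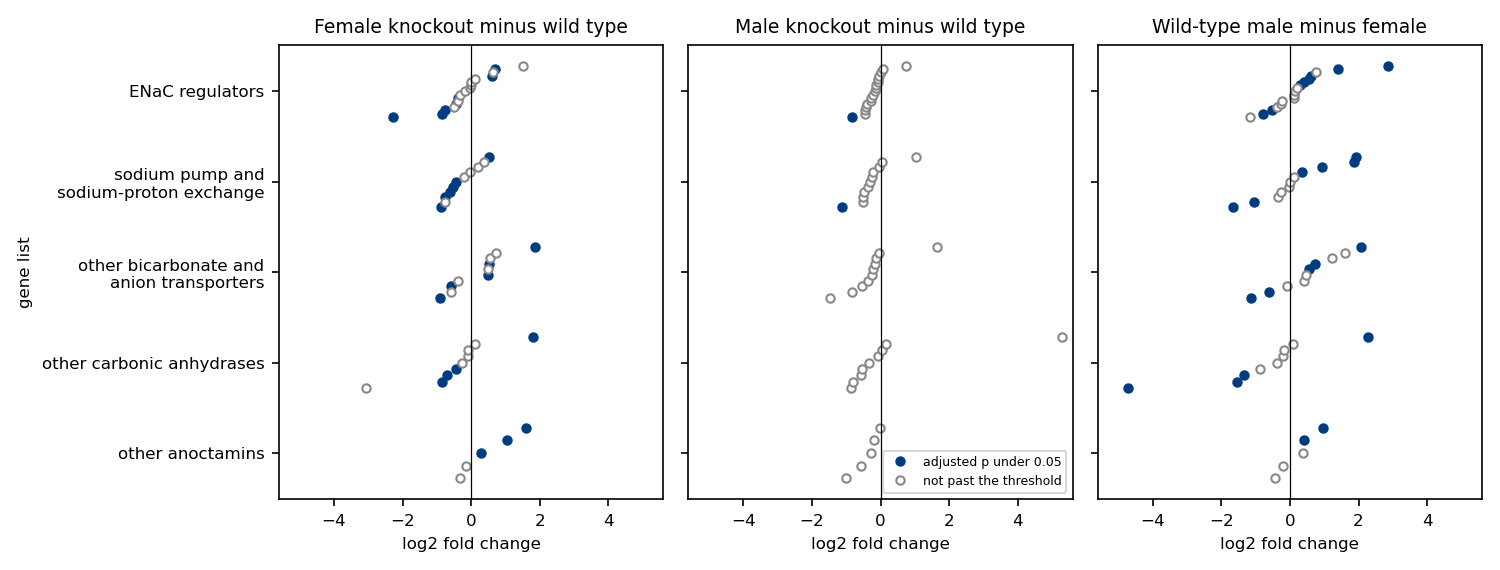
Log2 FC (horizontal axis) of the tested genes of 5 pathway lists (vertical axis), for knockout minus wild type in females and males and for wild-type male minus female; filled points passed an adjusted p of 0.05. In the male genotype comparison 2 points are filled, Usp2 at -0.82 and Slc9a4 at -1.12.

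Genes with the most similar profiles were listed by Pearson correlation of log2 CPM over the 12 libraries, which share sex and genotype. For Scnn1b they were Shisa4 (0.997), Tmem163 (0.996) and Aph1c (0.995). For Scnn1g they were Scnn1b (0.994), Adamts2 (0.993) and Muc13 (0.993), and for Scnn1a they were Comp (0.984), Kif26b (0.982) and Rasgef1b (0.981). Ano4 was most like Pclo (0.984), Tfap2a (0.964) and Gm52950 (0.959). Slc4a11 had less close partners, Hspb7 (0.903), A830008E24Rik (0.898) and Pik3c2b (0.896). For Slc4a4 they were Micall2 (0.950), Tmem25 (0.940) and Dennd5a (0.936), and for Slc26a6 the unnamed gene ENSMUSG00000110162.2 (0.967), Celsr2 (0.964) and Zbed5 (0.963). Car2 was most like Arhgap29 (0.947), Nadk2 (0.946) and Dhrs3 (0.944), and Car12 most like Chst11 (0.973) and Mapre2 (0.971). Slc26a6 and Ano4, which were both highest in knockout females, correlated at 0.86 over the libraries and at 0.45 within groups.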

How the data were processed

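RNA from whole SMGs was sequenced by the authors as paired reads of 100 bases. The labels name polyA RNA, whereas the protocol describes ribosomal RNA-depleted, stranded total RNA libraries. The deposited table holds estimated counts per gene made by the authors with Salmon 1.10.1 on GRCm39, of which 78.9% were whole numbers (within 1e-09). A second deposited table holds a normalized signal, from which only the authors' own scaling factors were taken. The members and gene lists were chosen with earlier results of these data known.

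Counts were rounded, filtered with filterByExpr and fitted with edgeR 4.0.16 (TMM factors, quasi-likelihood F test, R 4.3.3) with 4 group means over all 12 libraries. P-values were adjusted by Benjamini-Hochberg over 17893 genes. Within each list, at most 4 called genes per comparison, those with the smallest adjusted p, were named. For each of the 9 genes the 3 most similar genes were found. A few genes that these rules name are not reported here. Gene positions and transcript lengths are from Gencode M39, which held 55563 of 56065 identifiers. On simulated counts with 200 genes changed 3-fold between female genotypes, 71% were recovered. Alternatives were other scalings and filters, DESeq2 1.42.0, a replicate block, only the compared libraries and leaving out each library. A further one, without knockout female 3 and wild-type male 3, was chosen after seeing the data. Where a library lists 0, as many as 3 counts (0.0442 to 0.0638 CPM) remain possible from counting error alone. The labels name a separate mouse for each library.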

Additional observations from a re-analysis of the deposited data

Results flagged for a closer look

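For Slc4a11 the genotype difference itself differed between the sexes, by 1.56 on the log2 scale (edgeR interaction, SE 0.20, adjusted p = 0.0027), with all 3 knockout females above and all 3 knockout males below their wild types.

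For Ano4 the genotype difference differed between the sexes by 2.61 on the log2 scale (edgeR interaction, SE 0.46, adjusted p = 0.0043), with the same arrangement of the libraries and counts of 21 to 194. The study had singled out both Slc4a11 and Ano4 on these same libraries, so neither result is independent of that choice.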

How the results depend on the processing

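The sex difference in wild type was stable: 8 genes were called under all 10 alternatives and without each library in turn. In knockout mice 7 to 9 were called without each library. Between female genotypes 3 genes were called, against 7 with upper-quartile factors, 5 with at least 10 counts in every library, 1 with the authors' own factors and 2 to 4 without each library. Over all tested genes 6611 of 17893 were called there. The same count was 6641 of 17893 with upper-quartile factors, 6014 of 14172 with at least 10 counts and 6197 of 17893 with the authors' factors. Between male genotypes 1 was called, against 2 without a low-count filter or with DESeq2, 0 without the 2 libraries high in Muc19 and 1 to 2 without each library. In males without those 2 libraries, 1390 of 18355 tested genes had an unadjusted p under 0.05, against 2056 of 17893 with all libraries. A share of about 0.05 would pass that threshold if no gene differed, so neither value is a count of changed genes. For the interaction 2 were called, against 5 with upper-quartile factors and 2 to 4 without each library (4 without wild-type male 2). Over all tested genes the interaction was called for 4606 of 17893, and for 4589 with upper-quartile factors. The cause of these changes was not tested.

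Signs changed in differences that were not called. Car2 between female genotypes was -0.01 with RLE factors and with DESeq2, -0.03 without the 20 most abundant genes, -0.07 with the authors' factors and -0.19 to 0.14 without each library. Car2 between male genotypes was -0.00063 without the 2 Muc19-high libraries and -0.13 to 0.18 without each library. The Car2 interaction was -0.04 with RLE factors and with DESeq2, -0.06 without the 20 most abundant genes, -0.14 with the authors' factors, -0.01 without a low-count filter and with the replicate block, and -0.23 to 0.15 without each library. The Car12 interaction was 0.10 with the authors' factors. Without each library, Scnn1b between male genotypes ranged from -0.19 to 0.01, the Slc4a4 interaction from -0.16 to 0.43 and Ano4 between the wild-type sexes from -0.52 to 0.06.

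Upper-quartile factors moved the median of all genes by 0.104 in the female comparison and by -0.161 between the knockout sexes, and the share of higher calls from 47.8% to 59.7% and from 53.3% to 38.0%. In males 42 of all tested genes were called, against 389 without a low-count filter, 406 with DESeq2, 8 without the 2 Muc19-high libraries and 13 to 635 without each library (635 without knockout male 1, 13 without wild-type male 1 or 3). For the interaction 4606 were called, against 1140 without those 2 libraries and 2384 to 5562 without each library. Same-numbered mice did not deviate together (correlations of 0.05, -0.10 and -0.11 in females and 0.09, 0 and -0.13 in males), and with the replicate block the only call among the 9 genes to change was the Slc26a6 interaction (0.62).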
